A study of Mus musculus with 8 samples.

Results

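DEAD box and DEAH box proteins are enzymes that use ATP to open RNA duplexes or strip proteins from RNA. DEAD box members (gene names Ddx) mostly act locally on short duplexes, and DEAH box members (gene names Dhx) mostly pull on a single strand. They are named for a stretch of amino acids in the ATPase core. Different members serve ribosome assembly in the nucleolus, each step of splicing, mRNA export, translation and antiviral sensing. A fully grown oocyte stops transcription, finishes meiosis on stored mRNA, and removes a large part of that store as it matures. The members were the 50 protein-coding mouse genes of the deposited count table whose symbol is Ddx or Dhx followed by a digit, of 55385 genes in all, with 3 genes of such names left out. The table pairs no symbols with its gene identifiers, so symbols were taken from GENCODE M21. Of the 50 members, 48 had enough reads to be tested.

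The 8 libraries hold polyadenylated RNA of mouse oocytes (C57BL/6 x 129/SvJ) grown in culture from embryonic stem cells with Blimp1-mVenus and Stella-ECFP reporters. Germ cell-like cells made from them were combined with female gonadal somatic cells of embryonic day 12.5, cultured for 21 days, and the follicles were then grown for 11 days. Oocytes with a germinal vesicle (GV, arrested before maturation) came in pools of 31 to 158, and oocytes at metaphase of the second division (MII, after 16 h of maturation culture and with a polar body) in pools of 35 to 58. The native line is labelled as native XX, and the sex-converted line is an XX line that, by the series title, goes back to male mice. Each line and stage has 2 libraries. The labels call them biological duplicates and name each line by 1 designation, H18 for the native and N2DsRed4XO63R2 for the sex-converted line. Differences between the lines thus compare these 2 lines only, and the part of sex conversion in them was not tested.

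The libraries held 10306471 to 14999003 counted reads. The 11 oocyte markers were present in every library, at a summed 13635 to 22200 CPM. CPM is reads per 1000000 reads of a library total scaled by TMM, as set out below. On this scale the summed markers of other cells were higher at MII than at GV, though single markers went both ways. The scaling factors are lower at MII, which raises MII values against GV values. The sums were not compared on library totals alone. The 13 granulosa and cumulus markers summed to 52.3 to 73.5 CPM at GV and 85.1 to 126 CPM at MII, with Amh and Foxl2 at or below 1 CPM in all libraries. Cyp19a1 was at 12.4 to 19.4 CPM at GV and 47.95 to 63.5 CPM at MII, Nr5a2 at 31.3 to 47.4 and 24.2 to 29.997 CPM, and Fshr at 0.390 to 1.43 CPM at GV and 0 at MII. The 11 stromal and theca markers summed to 1.5 to 1.9 CPM at GV. At MII they reached 123 CPM in native replicate 1, 23.5 in native replicate 2, 66.7 in sex-converted replicate 1 and 18.9 in sex-converted replicate 2, while Col1a2 and Lum were at 0 in all libraries. Pecam1 made up most of the 60.4 to 280.3 CPM of the 7 blood and endothelium markers, and Adgre1 and Hba-a1 were at 0 throughout. The part of these cells' RNA in the results below was not tested.

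CPM values here are reads divided by a library total scaled by TMM, a method that assumes most genes keep their share between libraries. These factors lay between 1.33 and 1.43 for GV libraries and between 0.714 and 0.733 for MII libraries, so the scaling matters: with library totals alone, the median log2 change of all genes was 0.91 lower in the native line and 0.93 lower in the sex-converted line. Changes below are relative to the TMM scale, and the poly(A) selection means that loss of an mRNA and shortening of its tail cannot be told apart. A member is called where its adjusted p (edgeR's quasi-likelihood test, Benjamini-Hochberg over 14929 genes) was under 0.05.

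Most mRNAs of the members fell during maturation, and a few rose. In the native line 10 of 48 members rose, where 29.6% of all genes tested rose, and 31 fell, against 35.7% of all genes. The sex-converted line gave 9 members higher (all genes, 29.3%) and 31 lower (all genes, 36.2%). In both lines alike 9 members rose, where 26.9% of all genes did, and 30 fell, where 32% of all genes did. No member was called in opposite directions, and neither was any other gene (0%). The median log2 fold change of members was -2.23 in the native line, against -0.31 over all genes, and -1.76 in the sex-converted line, against -0.35. The libraries of the 2 stages did not overlap in either line for 42 of 48 members, against 76.6% of all genes. A total of 7 of 48 members were lower by 16-fold or more in both lines, against 4.49% of all genes. These were Ddx11, Ddx20, Ddx24, Ddx49, Ddx55, Ddx56 and Dhx8. Of the 48, Ddx3x, Ddx5 and Dhx36 were higher by 4-fold or more in both, against 10.2% of all genes. With library totals as the only scaling, 5 members rose and 35 fell in the native line, and 6 rose and 32 fell in the sex-converted line. The shares of all genes above are on the TMM scale and do not apply to these counts. Without such shares on library totals, the counts cannot be read as particular to the members. Against that scale the members' changes shifted by a median of -0.91 (native) and -0.93 (sex-converted) log2. Those of all genes shifted by -0.91 and -0.93.

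**Figure D1:**
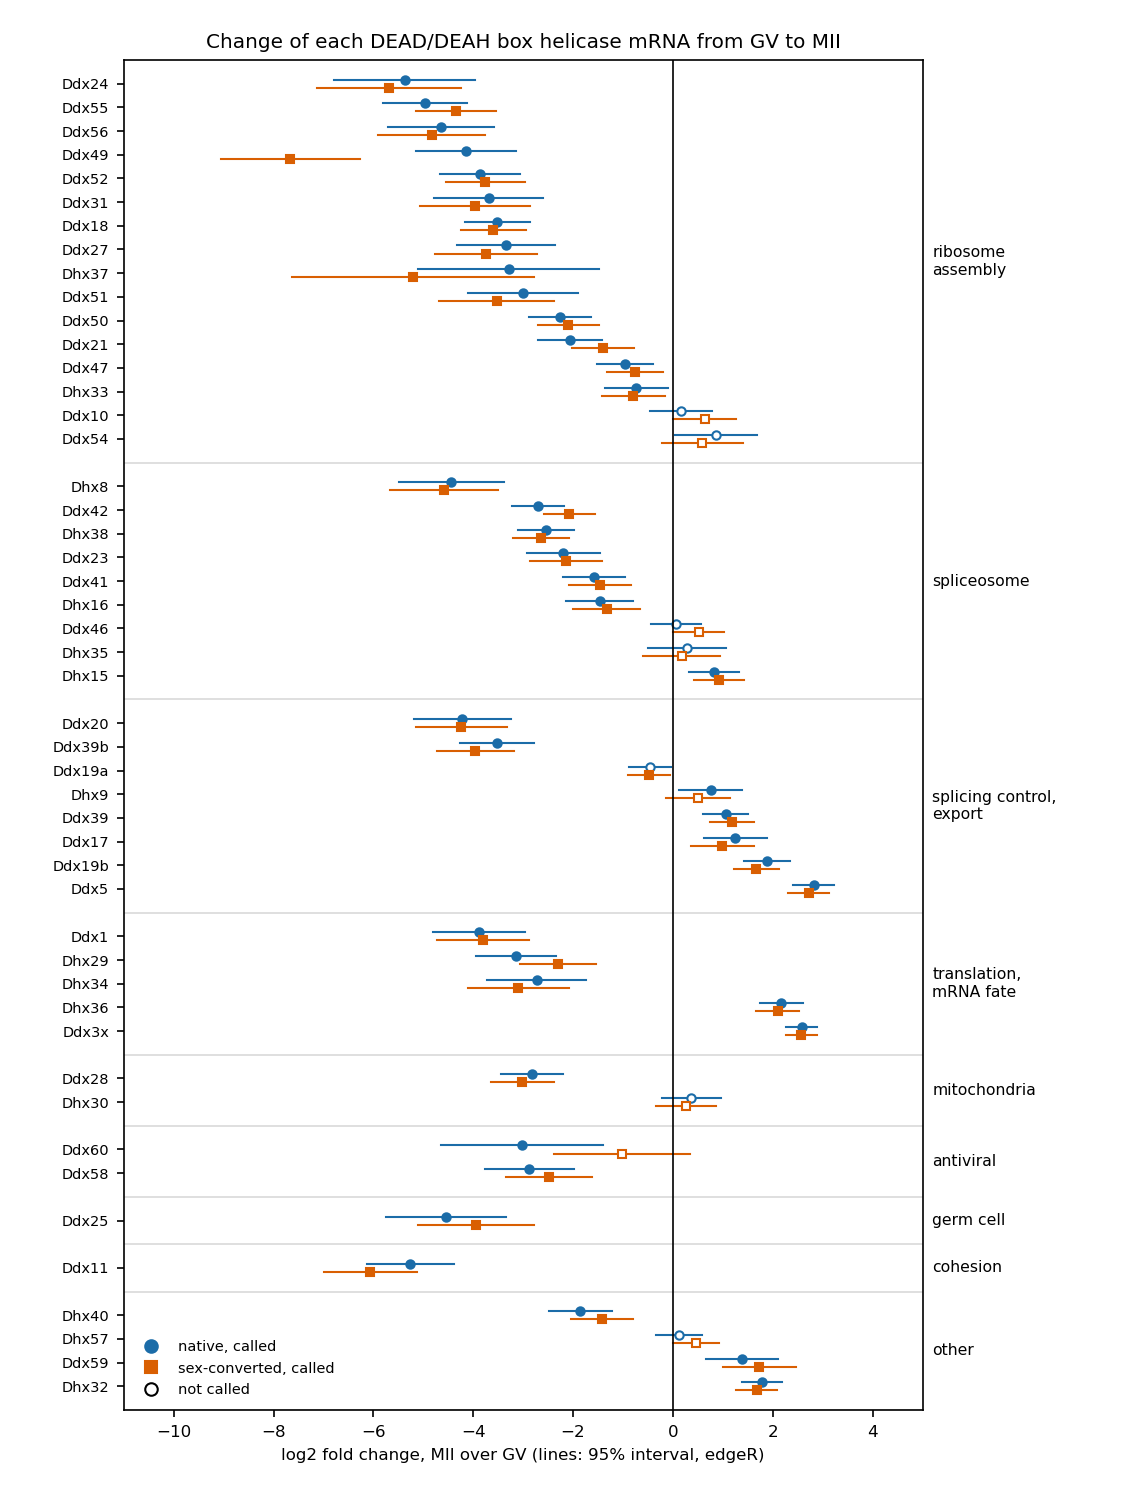
Log2 fold change from GV to MII of the 48 tested members, ordered by role, in the native line (blue circles) and the sex-converted line (orange squares), with 95% intervals from edgeR on 2 libraries per group; open symbols did not pass the test. Most ribosome assembly members lie between -2 and -6, and Ddx5, Ddx3x and Dhx36 lie above 2. The sex-converted values of Ddx49 and Dhx37 rest on 3 reads and 1 read at MII, and on library totals alone Dhx15 and Dhx9 turn to the left of 0.

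The 3′ ends of some members show the kinds of sequence that control tails in oocytes. The hexamer AATAAA or ATTAAA marks where an mRNA is cut and tailed. Near it, a U-rich cytoplasmic polyadenylation element (searched as TTTTAT or TTTTAAT on the transcript strand) is bound by CPEB proteins, which lengthen tails and raise translation of selected mRNAs during maturation. The sequences below are 30-base windows of the GENCODE M21 transcripts on GRCm38 (mm10), written as DNA, with these motifs in capitals. Dhx36 is shown because it rose and holds both motifs side by side, Ddx1, Ddx25, Ddx47 and Ddx50 because they hold both and fell, and Ddx10 because it holds both and was not called. Ddx5, which rose, and Ddx24 and Ddx11, which fell, hold the hexamer with no U-rich motif in their last 100 bases. Ddx3x holds a U-rich motif elsewhere in its last 100 bases.
Dhx36: ttttactgTTTTATgAATAAAgctgctcta
Ddx1: ggaatataTTTTATgaATTAAAatagaact
Ddx25: tacAATAAAgatattaacctTTTTATtgaa
Ddx47: ttatgATTAAAgatgtatTTTTATtacctg
Ddx50: ttgaATTAAAaaaaagcccTTTTATtgtct
Ddx10: tTTTTAATtgagttcataaaaaAATAAAct
Ddx3x: tttagaggtgaaAATAAAgttgtgctcttg
Ddx5: gttgtcttaactAATAAAtgtgatttttct
Ddx24: cttgttttccagATTAAAccaagtaggagt
Ddx11: gtgtcatggccgATTAAAagaacaactgaa

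The windows lie in 3′ untranslated regions, at chr3:62468021-62468050 (minus strand) for Dhx36, chr12:13216986-13217015 (minus) for Ddx1 and chr9:35536649-35536678 (minus) for Ddx25. The Ddx47 window is at chr6:135023747-135023776 (plus), that of Ddx50 at chr10:62616022-62616051 (minus) and that of Ddx10 at chr9:53098649-53098678 (minus). The Ddx3x window is at chrX:13294018-13294047 (plus), that of Ddx5 at chr11:106780360-106780389 (minus), that of Ddx24 at chr12:103407989-103408018 (minus) and that of Ddx11 at chr17:66152135-66152164 (plus). A U-rich motif lay in the last 100 bases of 3 of the 9 members that rose in both lines (Ddx3x, Dhx36 and Ddx19b). It lay in 6 of 29 that fell (Ddx1, Ddx18, Ddx25, Ddx47, Ddx50 and Dhx38) and in 3 of the other 8 (Ddx10, Ddx46 and Dhx35). These 46 members have at least 100 bases of 3′ untranslated region. Among all tested protein-coding genes of that kind, the motif lay in 33.6% of 3554 that rose in both lines, 10.3% of 3842 that fell in both lines and 19.9% of all 11823. The 3′ untranslated regions had a median length of 2276 bases in the 9 members that rose and 642 bases in the 29 that fell, against 1469.5 and 764 bases for all such genes. The transcript end used in these oocytes was not read, so a motif match describes the annotated end only.

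Of the 5 helicases that act on translation and mRNA fate in the cytoplasm, Ddx3x and Dhx36 rose in both lines (all genes, 26.9%). The other 3 fell in both lines (all genes, 32%). Ddx3x, on the X chromosome (13280970 to 13294052), helps ribosomes scan structured leader sequences. Its level was 594 and 574 CPM in the native GV libraries and 3433 and 3538 CPM at MII. The sex-converted libraries gave 558 and 588 CPM at GV and 3258 and 3543 CPM at MII. All 4 MII libraries thus stood far above all 4 GV libraries, at 5.97 times the GV mean in the native line and 5.94 times in the sex-converted line. The log2 fold changes were 2.58 (SE 0.14, adjusted p = 3.42e-07) and 2.57 (SE 0.14, adjusted p = 4.06e-07).

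Dhx36, which unwinds G-quadruplexes in mRNA, was at 32.4 and 27.5 CPM in native GV libraries and at 137 and 134 CPM at MII. In the sex-converted line it was at 33.5 and 34.4 CPM at GV and at 139 and 152 CPM at MII. The stages did not overlap, and on the log2 scale the change came to 2.17 (SE 0.20, adjusted p = 4.21e-06) in the native and 2.1 (SE 0.20, adjusted p = 5.21e-06) in the sex-converted line. The other 3 helicases of this role fell. Dhx29, which joins the small ribosomal subunit in scanning, went from 74.3 and 59.7 CPM to 8.69 and 6.36 in the native line, and from 61.6 and 60.8 to 7.55 and 17.1 in the sex-converted line. Its log2 change was -3.15 (SE 0.37) and -2.30 (SE 0.35), and the sex-converted value was -3.02 without MII replicate 2, the higher of those libraries. Ddx1, part of RNA transport granules and the tRNA ligase complex, went from 39.99 and 31.7 CPM to 3.15 and 1.62 in native oocytes and from 34.3 and 31.1 to 3.28 and 1.43 in sex-converted ones. This was a log2 change of -3.89 (SE 0.42) and -3.81 (SE 0.42). Without replicate 1 at MII it was -4.47 in the native and -4.52 in the sex-converted line. Dhx34, a factor of nonsense-mediated decay, was low at 8.41 to 14.4 CPM at GV and 0.876 to 2.01 CPM at MII over both lines. Its log2 changes were -2.73 (SE 0.45) and -3.10 (SE 0.46), the latter -3.73 without sex-converted MII replicate 2. All 6 of these falls passed the test, with adjusted p from 1.28e-05 to 0.000282.

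**Figure D2:**
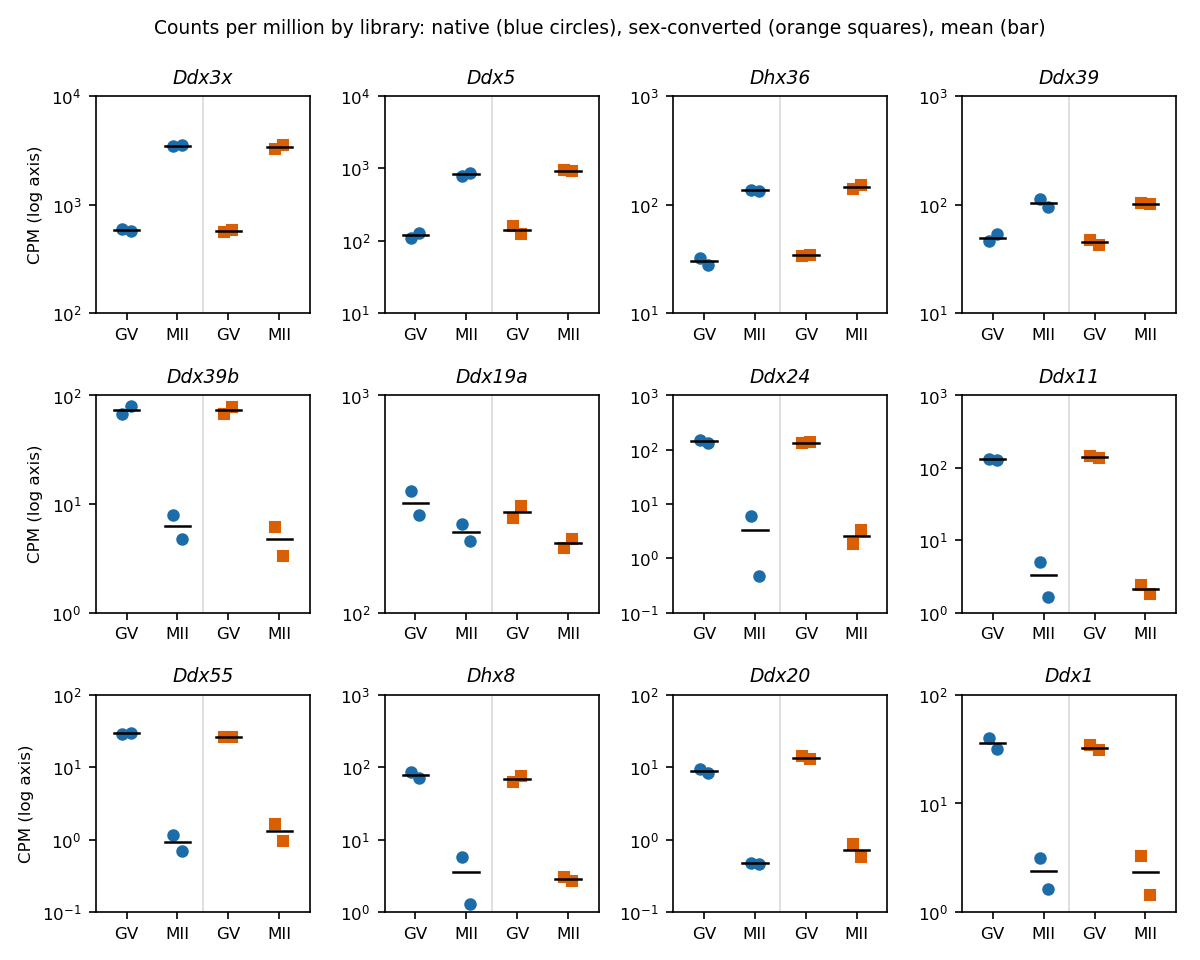
CPM (log axis, a different range in each panel) of 12 members in each library, native (blue circles) and sex-converted (orange squares), with the mean of 2 libraries as a bar. Ddx3x, Ddx5, Dhx36 and Ddx39 sit higher at MII, Ddx19a differs little, and the other 7 sit lower, with the native MII libraries of Ddx24 apart at 6.11 and 0.463 CPM.

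The helicases of splicing control, transcription and export split: 4 of 8 rose in both lines (Ddx5, Ddx17, Ddx19b and Ddx39) and 2 fell in both (Ddx20 and Ddx39b). Over all genes 26.9% rose and 32% fell in both lines. Ddx5 was at 109.8 and 127 CPM in native GV oocytes and at 794 and 873 CPM at MII. It was at 161 and 122 CPM in sex-converted GV oocytes and at 943 and 919 CPM at MII, again with no overlap. On the log2 scale Ddx5 changed by 2.82 (SE 0.19, adjusted p = 7.96e-07) in the native line and 2.72 (SE 0.19, adjusted p = 9.78e-07) in the sex-converted line. Its close relative Ddx17, a partner in the same complexes, went from 25.2 and 42.3 CPM to 75.2 and 85.5 in native and from 44.3 and 29.9 to 78.2 and 68.7 in sex-converted oocytes. The Ddx17 libraries of a stage differed more among themselves than those of Ddx5. The change of Ddx17 was 1.25 (SE 0.29, adjusted p = 0.00268) and 0.99 (SE 0.29, adjusted p = 0.0104) on the log2 scale, and the latter was not called without GV replicate 2 (adjusted p = 0.075) or MII replicate 1 (0.0571). On library totals alone Ddx17 was called in neither line (0.34 and 0.044).

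Ddx39b and Ddx39 are near relatives that load export factors onto spliced mRNA, and they changed places. Ddx39b fell from 68.1 and 79.4 CPM to 7.93 and 4.74 in native oocytes and from 67.6 and 78.2 to 6.13 and 3.33 in sex-converted oocytes. Ddx39 rose from 45.9 and 53.3 CPM to 112 and 94.9 in native oocytes and from 47.5 and 42.7 to 104 and 101 in sex-converted ones. The log2 changes were -3.53 (SE 0.34) and -3.95 (SE 0.35) for Ddx39b and 1.06 (SE 0.20) and 1.18 (SE 0.20) for Ddx39, with adjusted p from 3.38e-06 to 0.000797. Per kilobase of transcript, Ddx39 stood at 0.405 to 0.522 of the level of Ddx39b in the 4 GV libraries and at 10.4 to 22.5 times its level in the 4 MII libraries. The rise of Ddx39 was not called on library totals alone (log2 0.14 and 0.24). Ddx39 shares 895 exonic bases with Adgre5 on the opposite strand, and the strand setting of the counting is unknown here, but Adgre5 held at most 3 reads in any library.

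A second pair, Ddx19a and Ddx19b, lies side by side on chromosome 8 (110974996 to 110997800 and 111003188 to 111031751). Its proteins release export factors from mRNA at the nuclear pore. Ddx19b rose from 34.9 and 46.4 CPM to 151 and 149 in native oocytes and from 38.6 and 39.6 to 126 and 123 in sex-converted ones, with log2 changes of 1.88 (SE 0.21, adjusted p = 1.52e-05) and 1.67 (SE 0.21, adjusted p = 3.35e-05). Ddx19a was at 362 and 280.1 CPM in native and 271 and 308 CPM in sex-converted GV oocytes, and at 255 and 213 and at 198 and 218 CPM at MII. The stages of Ddx19a came close without overlapping. Its log2 change was -0.46 (SE 0.19, adjusted p = 0.0534) in the native line, not called, and -0.48 (SE 0.19, adjusted p = 0.0444) in the sex-converted line. That call was lost without any 1 of the 4 sex-converted libraries (adjusted p 0.062 without GV replicate 1, 0.233 without GV replicate 2, 0.198 without MII replicate 1 and 0.104 without MII replicate 2). The sex-converted call of Ddx19a was also lost in edgeR with RLE factors (adjusted p = 0.0672) and the replicate block (0.0685), and with DESeq2 (0.0977). In the native line the log2 change was -0.63 without GV replicate 2. Other edgeR settings called the native fall of Ddx19a. These were library totals alone (-1.36, adjusted p = 7.07e-05), no filter on low counts (-0.55, adjusted p = 0.0265) and a minimum mean of 50 reads (-0.53, adjusted p = 0.0214). Per kilobase, Ddx19a exceeded Ddx19b by 15.7 to 26.9 times at GV and by 3.72 to 4.59 times at MII. Reads shared by such near-identical copies may be divided between them by the counting.

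Ddx20, the gemin3 subunit of the SMN complex that builds splicing particles, fell from 9.52 and 8.30 CPM to 0.477 and 0.463 in native oocytes and from 14.4 and 13.0 to 0.876 and 0.571 in sex-converted ones. Its MII levels rest on 4 to 8 reads per library. The log2 change was -4.22 (SE 0.44, adjusted p = 1.03e-05) and -4.24 (SE 0.41, adjusted p = 6.57e-06). Dhx9, a helicase of transcription and nuclear RNA structure, was at 16.5 and 11.2 CPM in native GV oocytes and 26.8 and 20.0 at MII, and at 13.2 and 15.3 and 19.2 and 21.2 CPM in the sex-converted line. Its log2 change was 0.76 (adjusted p = 0.0386) in the native line, which turned to -0.15 on library totals alone, and 0.50 (adjusted p = 0.145) in the sex-converted line. The native call was lost without GV replicate 2 (log2 0.49), without MII replicate 1 (log2 0.52) and with a replicate block (adjusted p = 0.056). It was also lost in edgeR without the filter on low counts (adjusted p = 0.118) and with the 4 native libraries alone (0.0702).

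**Figure D3:**
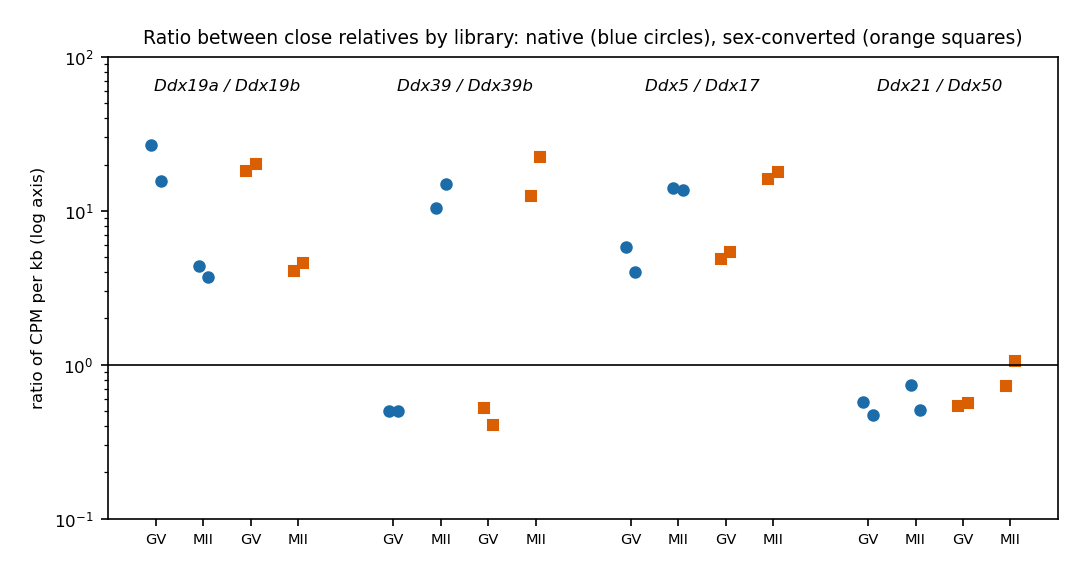
Ratio of CPM per kilobase (log axis) between 4 pairs of close relatives in each library, native (blue circles) and sex-converted (orange squares), with the line marking equal levels. Ddx39 over Ddx39b crosses that line between stages, from at most 0.522 to at least 10.4, while Ddx19a stays above Ddx19b and Ddx5 above Ddx17 in all 8 libraries.

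Of the helicases of ribosome assembly, 14 of 16 fell in both lines (all genes, 32%) and none was called higher. Their median log2 fold change was -3.31 in the native and -3.67 in the sex-converted line. Ddx24, tied to large subunit assembly, had the highest level per kilobase of this role at GV. It was at 153 and 131 CPM in native GV oocytes and 6.11 and 0.463 CPM at MII, and at 130.5 and 140.4 and at 1.86 and 3.33 CPM in sex-converted oocytes. Every MII library lay far below every GV library, but the native MII libraries differed widely from each other. The log2 change was -5.38 (SE 0.64, adjusted p = 2.65e-05) in native oocytes and -5.69 (SE 0.66, adjusted p = 2.16e-05) in sex-converted oocytes. The native value was -8.24 without MII replicate 1 and -4.56 without MII replicate 2. Ddx55, a large subunit factor, fell from 29.0 and 30.1 CPM to 1.15 and 0.694 in native and from 26.6 and 26.1 to 1.64 and 0.951 in sex-converted oocytes, by a log2 change of -4.97 (SE 0.38, adjusted p = 1.44e-06) and -4.35 (SE 0.36, adjusted p = 2.4e-06). Ddx56, another nucleolar large subunit factor, fell from 49.0 and 63.3 CPM to 3.53 and 0.810 and from 58.6 and 55.9 to 2.52 and 1.52. Its log2 changes were -4.64 (SE 0.48, adjusted p = 9.92e-06) and -4.83 (SE 0.49, adjusted p = 8.25e-06), the former -6.11 without native MII replicate 1 and -4.01 without replicate 2.

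Ddx49, a factor of small subunit RNA processing, was at 31.9 to 33.7 CPM in all GV libraries. At MII it kept 26 and 9 reads in the native libraries and 3 and 0 reads in the sex-converted ones. With so few reads the sex-converted fall is given as a ratio of normalised counts, 216 times lower at MII (95% counting interval 73.9 to 1050.4, counting error only). The native log2 change was -4.14 (SE 0.46, adjusted p = 1.57e-05) and became -4.94 without MII replicate 1. Ddx49 shares 874 exonic bases with Homer3 on the opposite strand, which had 9 reads in native MII replicate 1 and at most 1 in the others. Dhx37, which frees the U3 RNA from the young small subunit, was rarer, at 1.22 to 3.59 CPM at GV. It had 5 and 1 reads in native MII oocytes (log2 change -3.29, SE 0.82, adjusted p = 0.00463) and 0 and 1 reads in sex-converted MII oocytes, a ratio of 41.6 (interval 7.26 to 1664). The native value was -4.65 without MII replicate 1 and -2.70 without MII replicate 2.

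Among the other ribosome factors, Ddx18 fell from 69.1 to 84.8 CPM over the 4 GV libraries to 4.85 to 8.21 CPM over the MII libraries, with log2 changes of -3.52 and -3.60. Ddx52, Ddx31, Ddx27 and Ddx51 had log2 changes of -3.00 to -3.86 in the native and -3.53 to -3.97 in the sex-converted line. Without native MII replicate 1 the native change of Ddx27 was -4.58 and that of Ddx51 was -4.38, and without replicate 2 they were -2.75 and -2.38. The nucleolar relatives Ddx21, which also acts on ribosomal DNA transcription, and Ddx50 fell together. Ddx21 went from 35.8 and 27.1 CPM to 7.83 and 7.29 in native and from 34.5 and 28.7 to 9.96 and 13.9 in sex-converted oocytes. Ddx50 went from 33.6 and 31.0 CPM to 5.73 and 7.75 and from 34.3 and 27.4 to 7.34 and 7.04. Their log2 changes were -2.05 and -1.40 for Ddx21 and -2.26 and -2.1 for Ddx50, and their ratio per kilobase overlapped between stages in the native line. It was 0.470 to 0.572 over the GV libraries and 0.505 to 1.06 over the MII libraries.

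Near the threshold were Ddx47 (log2 -0.96 and -0.76) and Dhx33 (-0.74 and -0.79). Ddx47 was not called in the native line without MII replicate 2 (adjusted p = 0.0604), nor in the sex-converted line without GV replicate 1 (0.107), MII replicate 1 (0.0588) or MII replicate 2 (0.117). Dhx33 had an adjusted p of 0.0424 and 0.0304. Its native call was lost with DESeq2 (adjusted p = 0.0629). In edgeR it was lost with RLE factors (0.0585), no filter on low counts (0.0696) and the 4 native libraries alone (0.087). Without that filter the sex-converted call of Dhx33 was lost too (0.0614). Its native call was lost without GV replicate 1 (0.179), GV replicate 2 (0.0728) or MII replicate 1 (0.21), and with the replicate block (0.064). Its sex-converted call was lost without any 1 of the 4 libraries (0.0723 to 0.155). Ddx10 and Ddx54 were not called in either line by edgeR, but DESeq2 called Ddx54 higher in the native line (0.90, adjusted p = 0.0392) and Ddx10 higher in the sex-converted line (0.68, adjusted p = 0.0482). With RLE factors edgeR also called Ddx54 in the native line (adjusted p = 0.0477), and with the 4 sex-converted libraries alone it called Ddx10 (adjusted p = 0.0381). On library totals alone the native value of Ddx10 turned to -0.74. Ddx10 was at 27.5 to 49.6 CPM at GV and 42.2 to 54.1 CPM at MII, and Ddx54 at 6.91 to 15.4 and 13.5 to 19.1 CPM. Leaving out a library made sex-converted calls of both, Ddx10 without GV replicate 2 (log2 0.92, adjusted p = 0.0468) and Ddx54 without GV replicate 1 (1.21, adjusted p = 0.0238). Ddx54 shares 869 exonic bases with an antisense gene model, Gm43579, which held no reads.

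The spliceosome's own helicases fell less deeply than those of the ribosome list in their medians (-1.57 native and -1.45 sex-converted), a difference that was not tested. Of 9, 6 fell and 1 rose in both lines, against 32% and 26.9% of all genes. Dhx8, which releases the finished mRNA from the spliceosome, fell from 85.8 and 72.1 CPM to 5.83 and 1.27 in native and from 62.6 and 75.4 to 3.07 and 2.66 in sex-converted oocytes. The log2 change was -4.44 (SE 0.48, adjusted p = 1.34e-05) and -4.59 (SE 0.49, adjusted p = 1.22e-05), the former -5.96 without MII replicate 1 and -3.79 without MII replicate 2. Ddx42, found with the U2 particle, fell from 58.3 and 53.5 CPM to 8.88 and 8.22 and from 57.5 and 49.1 to 12.8 and 12.5, with close agreement within each group. Its log2 changes were -2.71 (SE 0.24, adjusted p = 3.34e-06) and -2.08 (SE 0.23, adjusted p = 1.63e-05). Dhx38, which remodels the spliceosome between its catalytic steps, fell from 54.7 and 66.6 CPM to 11.7 and 9.14 and from 61.1 and 51.5 to 9.31 and 8.75, a log2 change of -2.54 (SE 0.25, adjusted p = 7.63e-06) and -2.64 (SE 0.25, adjusted p = 6.24e-06).

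Ddx23, Ddx41 and Dhx16 fell too, with log2 changes of -1.47 to -2.20 in the native and -1.33 to -2.14 in the sex-converted line. Dhx15, which takes spent spliceosomes apart, was the member higher at MII. It was at 52.8 and 38.3 CPM in native GV oocytes and 84.2 and 77.0 at MII, and at 42.8 and 46.2 and at 75.7 and 92.8 CPM in sex-converted oocytes. On the TMM scale the log2 change was 0.82 (SE 0.23, adjusted p = 0.0081) and 0.92 (SE 0.23, adjusted p = 0.0042), but on library totals alone it turned to -0.086 and -0.014. Without native GV replicate 2 the native call was lost (0.60, adjusted p = 0.063). Ddx46, which acts with U2 at the branch site, was at 105 to 188 CPM at GV and 157 to 189.6 CPM at MII, with overlapping libraries in the native line. Its sex-converted log2 change of 0.51 was not called with all libraries but was without GV replicate 2 (0.76, adjusted p = 0.0408). Dhx35 was at 5.46 to 9.99 CPM throughout and was not called.

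Outside these roles, the largest fall belonged to Ddx11, a DNA helicase needed for sister chromatid cohesion that carries the family name. It was at 133 and 129 CPM in native GV oocytes and 5.06 and 1.62 at MII, and at 145 and 136 and at 2.41 and 1.81 CPM in sex-converted oocytes. The stages lay more than an order of magnitude apart. The log2 change was -5.26 (SE 0.40, adjusted p = 1.34e-06) and -6.06 (SE 0.42, adjusted p = 9.43e-07), and the native value was -6.34 without MII replicate 1. Ddx25, best known as a testis helicase regulated by gonadotropin, was present in GV oocytes at 41.8 and 29.9 CPM in the native and 25.5 and 36.6 CPM in the sex-converted line. At MII it was at 2.48 and 0.463 and at 2.63 and 1.43 CPM. Its log2 changes were -4.54 (SE 0.55, adjusted p = 2.95e-05) and -3.95 (SE 0.53, adjusted p = 6.29e-05), the former -6.26 without MII replicate 1 and -3.87 without MII replicate 2. Ddx43, a germ cell helicase, had at most 8 reads in a library and was not tested.

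Of the mitochondrial helicases, Ddx28, an assembly factor of the mitochondrial ribosome, fell from 79.6 and 87.6 CPM to 14.6 and 8.79 in native and from 78.3 and 62.6 to 8.54 and 8.85 in sex-converted oocytes. The log2 change was -2.83 (SE 0.28, adjusted p = 7.53e-06) and -3.02 (SE 0.29, adjusted p = 5.47e-06). Dhx30, which works in mitochondrial RNA granules, was at 40.5 to 65.7 CPM at GV and 60.2 to 69.6 CPM at MII and was not called. The antiviral sensors were all low. Ddx58, the RIG-I sensor of viral RNA ends, fell from 23.7 and 16.96 CPM to 2.1 and 3.47 and from 15.4 and 23.5 to 2.74 and 4.18, a log2 change of -2.88 (SE 0.40, adjusted p = 8.68e-05) and -2.48 (SE 0.39, adjusted p = 0.000202). Ddx60, linked to that pathway, was at 2.62 and 2.74 CPM in native GV oocytes and 0.0955 and 0.579 at MII, which is 1 and 5 reads. In the sex-converted line it was at 1.91 and 2.78 CPM and at 0.876 and 1.43 CPM. It was called in the native line (-3.03, SE 0.74, adjusted p = 0.00394) but not in the sex-converted line (-1.01, SE 0.62, adjusted p = 0.168), and the test of that difference gave 2.01 with an unadjusted p of 0.064. The native value was -2.21 without MII replicate 1 and -4.71 without MII replicate 2. On library totals alone the sex-converted fall of Ddx60 was called as well (-1.94, adjusted p = 0.0156). Dhx58, the LGP2 regulator of RIG-I, had at most 2 reads in a library and was not tested.

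Among the less studied members, Dhx32 and Ddx59 rose and Dhx40 fell. Dhx32 was at 50.01 and 51.2 CPM in native GV oocytes and 184 and 164 at MII, and at 57.8 and 52.4 and at 175 and 178 CPM in sex-converted oocytes. Its libraries agreed closely within each group, and the log2 change was 1.78 (SE 0.18, adjusted p = 9.95e-06) and 1.68 (SE 0.18, adjusted p = 1.47e-05). It shares 204 of 4172 exonic bases with Bccip on the opposite strand, which held 195 and 194 reads in native GV and 827 and 535 in native MII libraries, and 190 and 196 and 497 and 699 reads in the sex-converted line. With the strand setting unknown, reads of the shared bases cannot be told apart. Ddx59 was at 35.0 and 19.7 CPM in native GV oocytes and 75.8 and 66.5 at MII, and at 15.6 and 27.9 and at 67.3 and 77.1 CPM in sex-converted oocytes, with wide spread at GV and none of it reaching the MII values. The log2 change was 1.38 (SE 0.33, adjusted p = 0.00337) and 1.73 (SE 0.33, adjusted p = 0.000821), and on library totals alone the native value was 0.47 and not called. Dhx40 fell from 67.6 and 40.2 CPM to 14.5 and 15.3 and from 47.7 and 59.0 to 21.5 and 18.6, a log2 change of -1.86 (SE 0.29, adjusted p = 0.000179) and -1.41 (SE 0.28, adjusted p = 0.00107). Dhx57 was at 68.8 to 90.7 CPM at GV and 86.7 to 109.6 CPM at MII and was not called. Other scalings in edgeR called it in opposite directions. On library totals alone it was lower in the native line (-0.78, adjusted p = 0.00544). With RLE factors it was higher in the sex-converted line (0.52, adjusted p = 0.0499).

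Among the members, the pool of mRNA became dominated by Ddx3x. RNA helicases outside the list are not in these sums. Of those, Eif4a1 was at 157 and 150 CPM per kb at GV and 363 and 374 at MII (native and sex-converted lines). On the TMM scale the members summed to 2919 to 3164 CPM at GV and 5777 to 6132 CPM at MII, while as a share of all reads, with no such scaling, they took 0.403% to 0.448% in every library of either stage. Ddx3x alone took 18.8% to 19.9% of the members' reads at GV and 56.4% to 59.6% at MII. Without Ddx3x the members on the TMM scale summed to 2345 to 2569 CPM at GV and 2397 to 2588 CPM at MII. Per kilobase of transcript, the scale on which genes can be set beside each other, Ddx19a and Ddx3x led the members at GV. They differed by less than their spread. Ddx19a was at 126 ± 22.7 CPM per kb (SD, n = 2) and Ddx3x at 125 ± 3.04 in native oocytes, and at 114 ± 10.3 and 122 ± 4.47 in sex-converted ones. Ddx24 followed at 49.8 ± 5.62 and 47.5 ± 2.47 CPM per kb, apart from the next member by more than the SDs in the native line only. The next places were held by Ddx28 (37.0 ± 2.49) and Ddx18 (34.9 ± 3.82) in native and Ddx5 (39.8 ± 7.82) and Ddx11 (33.8 ± 1.61) in sex-converted GV oocytes, and within each line these differed by less than the spread.

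At MII Ddx3x led the members at 743 ± 15.9 CPM per kb in native and 725 ± 43.0 in sex-converted oocytes. Ddx5 came second at 234 ± 15.8 and 262 ± 4.70. Next came Ddx19a at 91.9 ± 11.5 and 81.7 ± 5.44, Dhx32 at 59.0 ± 4.83 and 59.7 ± 0.842, and Ddx59 at 32.9 ± 3.03 and 33.3 ± 3.20 CPM per kb. Ddx3x, Ddx5, Ddx19a and Dhx32 were apart from each other by more than the SDs in both lines. The next, Ddx46, at 29.0 ± 0.516 and 30.5 ± 4.04, differed from Ddx59 by less than the SDs in the sex-converted line only. It took the 28 to 29 most abundant members to reach 90% of the summed per-kilobase level in a GV library and 10 to 11 in an MII library. Members at 10 CPM or more numbered 41 to 44 at GV and 21 to 23 at MII.

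**Figure D4:**
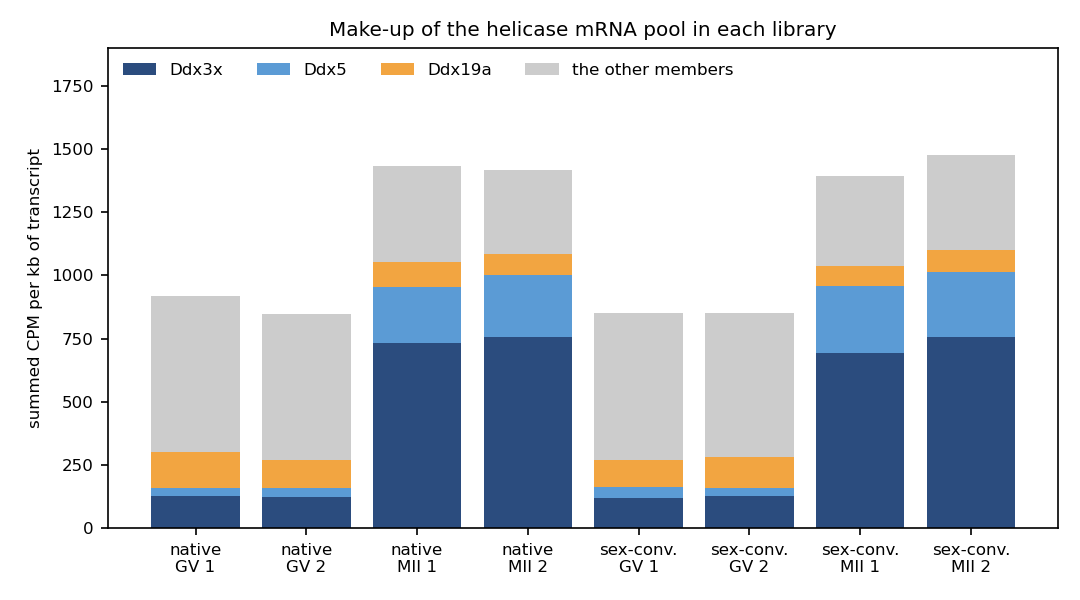
Summed CPM per kilobase of transcript of the 50 members in each library, divided into Ddx3x, Ddx5, Ddx19a and the other members. Ddx3x makes up 13.8% to 14.7% of the GV bars and 49.8% to 53.3% of the MII bars, Ddx5 3.36% to 5.33% and 15.5% to 19.0%, and Ddx19a 12.5% to 15.5% and 5.59% to 6.97%.

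No difference between the lines passed the test for any member. The change from GV to MII differed between the lines for 0 of 48 members (0% of all genes), and the lines differed at GV for 0 members (0.0134% of all genes) and at MII for 0 members (0.0134% of all genes). DESeq2 also called 0 members in each of these comparisons. Unadjusted p-values under 0.05 in edgeR numbered 1 in the first (Ddx49), 0 at GV and 4 at MII (Ddx49, Ddx42, Ddx60 and Ddx21), and in DESeq2 1, 0 and 1. At GV the differences ran from -0.49 to 0.61 on the log2 scale, and for 39 of 48 members the 95% interval lay within 2-fold either way. At MII this held for 24 of 48, and the intervals of the other 24 reached past 2-fold. The MII differences of Ddx42 and Ddx21 were 0.56 (95% interval 0.04 to 1.08) and 0.66 (0.02 to 1.3), sex-converted over native, with both sex-converted libraries above both native ones. Ddx60 was 1.82 (0.08 to 3.57) and Ddx49 -3.47 (-5.21 to -1.73). Without the filter on low counts the Ddx49 difference at MII was called (-3.43, adjusted p = 0.00232). All 48 members had the same sign of change in both lines, and for 38 the changes were within 0.5 log2 of each other.

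The MII libraries of the native line differed from each other among the members that fell. Of the 30 members that fell in both lines, 26 were higher in native MII replicate 1 than in replicate 2, by a median of 1.56 times, and 9 by 2-fold or more. In sex-converted MII oocytes 18 of the 30 were higher in replicate 1, by a median of 1.05 times, and 2 by 2-fold or more. Among the 9 members that rose, the native MII libraries differed by a median of 1.02 times. The same counts were not made over all genes that fell, so the tilt cannot be called particular to the members. Native MII replicate 1 is also the library with the highest stromal sum, 123 CPM, but the markers of that list did not all go 1 way. Vim (16.7 and 2.43 CPM in replicates 1 and 2), Thbs1 (39.9 and 3.47), Nupr1 (35.3 and 7.29) and Spp1 (28.9 and 6.13) were higher in replicate 1. Pdgfra (0.573 and 1.62), Acta2 (0.477 and 1.27) and Dcn (0.859 and 0.926) were higher in replicate 2. Col1a1 was at 0.573 and 0.347 CPM, and Col1a2, Col3a1 and Lum were at 0 in both. Sex-converted MII replicate 1, with a stromal sum of 66.7 CPM, showed no such tilt over these 30 members. The part of these other cells' RNA in the levels of the members was not tested. Without native MII replicate 1, 9 members rose and 30 fell.

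**Figure D5:**
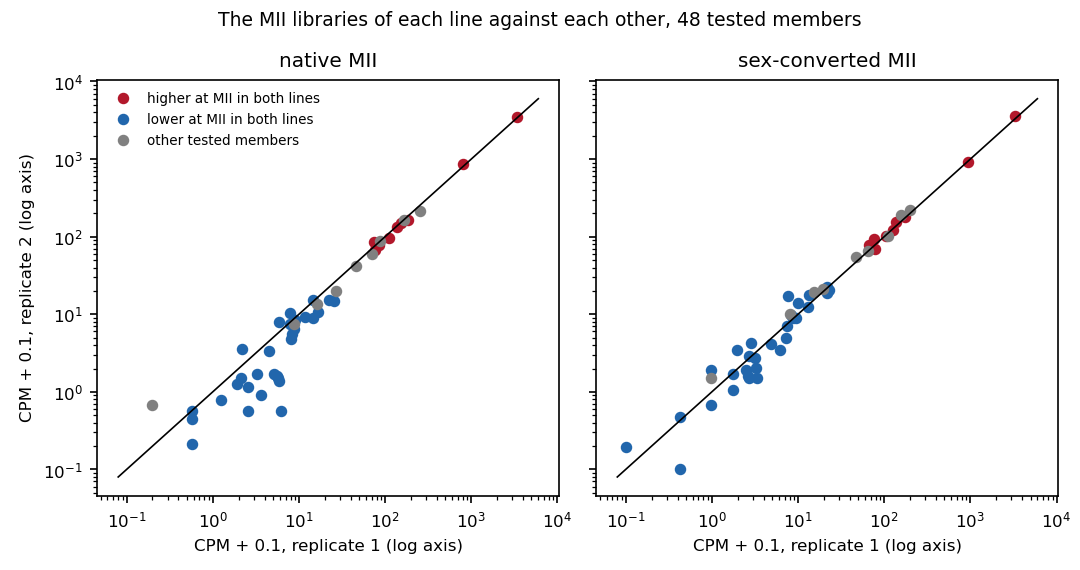
CPM + 0.1 of the 48 tested members in MII replicate 1 and replicate 2 (log axes) of the native line and the sex-converted line, with the line of equality; red marks the 9 members that rose and blue the 30 that fell in both lines. In the native line 26 of the 30 blue points lie on the side of replicate 1, and in the sex-converted line 18 of 30.

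Proteins that work with these helicases were followed on 3 lists. Over all genes 29.6% rose and 35.7% fell in the native line, and 29.3% rose and 36.2% fell in the sex-converted line. Of RNA helicases outside the Ddx and Dhx names, 19 were tested in the native line, and 8 rose and 9 fell. In the sex-converted line 8 rose and 8 fell. The medians were 0.36 and -0.028, against -0.31 and -0.35 over all genes. Upf1, the helicase of nonsense-mediated decay, rose from 53.6 and 67.3 CPM to 983 and 1058 in native oocytes and from 101 and 47.8 to 962 and 818 in sex-converted ones (log2 4.08 and 3.58). Ythdc2, a meiotic RNA helicase, changed by 2.36 and 2.19, and Eif4a2, the cap-complex helicase, by 2.07 and 2.26. Mov10, a silencing helicase, changed by -4.04 and -4.18, Ighmbp2 by -3.06 and -5.47, and Snrnp200, which unwinds the U4 and U6 RNAs in the spliceosome, by -2.30 and -2.47.

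Proteins with a G-patch, a short motif that switches on DEAH box helicases, were lower in 12 of 21 cases and higher in 4 in each line, with medians of -1.41 and -2.03. Tfip11, the G-patch partner of Dhx15 in spliceosome disassembly, fell from 35.9 and 51.5 CPM to 1.91 and 1.85 in native and from 58.5 and 36.7 to 2.08 and 0.571 in sex-converted oocytes (log2 -4.53 and -5.19). Sugp1 changed by -4.11 and -4.56 and Gpatch11 by -3.79 and -3.36. Aggf1 (1.63 and 1.41), Gpatch2 (1.39 and 1.5) and Gpatch1 (1.19 and 1.57) rose. Of 22 regulators of DEAD box helicases, 7 rose and 10 fell in the native and 6 rose and 9 fell in the sex-converted line, with medians of -0.66 and -0.63. Gle1, which activates the Ddx19 proteins at the nuclear pore, rose from 184 and 231 CPM to 1208 and 1082 and from 247 and 215 to 1103 and 1102 (log2 2.46 and 2.26). Of the export complex that works with Ddx39b, Thoc2 rose (2.77 and 2.71) and Thoc5 fell (-4.90 and -4.55). Magoh, a core protein of the exon junction complex, rose (2.50 and 2.67), and the translation cofactor Eif4h (-3.61 and -3.48) and the deadenylase scaffold Cnot1 (-3.29 and -3.20) fell.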

How the data were processed

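Polyadenylated RNA of 8 pools of oocytes (4 groups of 2) was sequenced as single reads of 75 bases after 13 PCR cycles with a directional kit, per the labels. The deposited values are raw counts per gene. Per the submitters' processing notes the tools were Trimmomatic 0.38, HISAT2 2.1.0, featureCounts 2.0.0 and DESeq2 1.30.1, with mm10. Not given in the sources used here: the strand setting, multi-mapping and annotation release of the counting. Of 55385 gene identifiers, 55144 matched GENCODE M21 (GRCm38). 

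All genes were fitted with edgeR 4.0.16 in R 4.3.3: TMM factors, filterByExpr (minimum count 10), 1 coefficient per group over all 8 libraries, quasi-likelihood tests with 4 residual degrees of freedom, Benjamini-Hochberg adjustment and a threshold of 0.05. SEs were taken as the fold change over the root of F. The script was tested on simulated data. Library totals were 10306471 to 14999003, and intervals on counts cover counting error only. Replicates are labelled biological duplicates. The p-values rest on the spread between them, estimated for each gene with information shared over all genes tested. Alternatives were DESeq2 1.42.0, RLE factors, library totals only, no filter, a minimum mean of 50 reads, the replicate number as a block, the line's or stage's 4 libraries only, and leaving out each library.

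Full values are given for up to 3 members per direction of each role with the largest native change among those called alike in both lines, members called in 1 line, the 5 highest per kilobase at each stage, and close relatives. The members, roles and partner lists were chosen with earlier results of these data known. Length is that of 1 representative transcript per gene. Genes with overlapping exons are named where the overlap bears on a value.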

Additional observations from a re-analysis of the deposited data

How the results depend on the processing

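Of 1052 alternatives for single members, 995 kept their call, and these include any that turned sign with no call under either setting. Another 37 lost a call, 14 gained a call, and 6 turned sign with a call under either setting. All 6 turned on library totals alone, where the native values became -0.84 for Ddx46, -0.086 for Dhx15, -0.78 for Dhx57, -0.15 for Dhx9 and -0.74 for Ddx10, and the sex-converted value of Dhx15 became -0.014. The native values of Ddx46, Dhx57 and Ddx10 were called lower on that scaling (edgeR, adjusted p = 0.00593, 0.00544 and 0.0331). That scaling also left 5 native members higher, with medians of -3.14 and -2.70 in the native and sex-converted lines. It shifts all genes by construction, since the MII factors are the lower ones. Without the filter on low counts the sex-converted median was -1.48, with Ddx43 and Dhx58 also fitted, and 1 member (Ddx49) was called between the lines at MII. A total of 35 members kept their calls between the stages in both lines under every alternative run. With libraries left out in turn, native members higher were 8 to 10 and lower 30 to 31, and sex-converted members higher were 8 to 10 and lower 28 to 29. The replicate numbers showed little pairing of the stages within a line (correlation of deviations -0.038 between native GV and native MII and 0.068 between sex-converted GV and sex-converted MII). With the replicate block 9 members were higher and 30 lower in each line, losing Dhx33 and Dhx9 in the native and Ddx19a in the sex-converted line. Between the lines this correlation was -0.443 at GV and 0.171 at MII, and the labels name no shared batch. A block with the native GV numbers swapped, chosen after seeing the data, called 0 members between the lines at GV. Depth limits MII values of the fallen members most, since several rest on under 10 reads in a library.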
